A study of Homo sapiens with 8 samples.

Results

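Long intergenic non-coding RNA genes, named LINC and a number, lie between or beside other genes and give long transcripts most of which encode no protein. They were examined here in nascent RNA from HCT116, a human colorectal carcinoma cell line, measured by precision nuclear run-on sequencing (PRO-seq), which maps the 3′ ends of RNA held by engaged polymerase and therefore follows transcription as it happens rather than the RNA that accumulates. Members were all genes of the deposited count tables whose symbol is LINC followed only by digits and which exceeded 0.5 CPM (counts scaled to a common library total) in at least 2 of 8 libraries, in the gene body or at the transcription start site (TSS). Of 23193 listed genes, 1131 carried such a symbol, and 463 of these (40.9%) passed the minimum. The gene body could be tested for 420 members and the TSS region for 329. Both were tested for 286 members, the body alone for 134 and the TSS alone for 43. The 668 LINC genes under the minimum included 191 with no gene body read in any library.

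The study compared wild-type (WT) and HIF1A-/- HCT116 cells in normoxia or after 90 min in 1% O2, to ask which early transcriptional responses to hypoxia need the oxygen-regulated factor HIF1A. The 4 groups were WT normoxia, WT hypoxia, HIF1A-/- normoxia and HIF1A-/- hypoxia, each with 2 libraries labelled as replicates, and every culture also received the vehicle DMSO. The HIF1A-/- cells are one derived line, made by virus-mediated recombination that disrupted exons 3 and 4 of HIF1A, so that any difference the line has acquired besides HIF1A cannot be told apart from the loss of HIF1A. P-values measure the spread between replicate libraries within groups, estimated over all 4 groups together, and not that between independently derived lines.

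Most LINC RNAs have no described function. They are transcribed by RNA polymerase II, often at low levels, and many start close to another gene or take up polymerase that has run on from a neighbour. Some act on the gene beside them, some act elsewhere in the cell, and a few turned out to encode small proteins. In hypoxia HIF1A pairs with ARNT and binds short DNA motifs called hypoxia response elements.

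The start regions of 3 LINC genes that carry the main results are shown first, each from 250 bases before the annotated start to 50 bases from it, 5′ to 3′ on the minus strand of GRCh37. LINC01619 (chr12:92536558-92536857) was the member called in hypoxia, and LINC00511 (chr17:70636562-70636861) and LINC00673 (chr17:70588896-70589195) are the neighbouring pair that was lower in HIF1A-/- cells. Capitals mark the core of the hypoxia response element, searched as ACGTG or GCGTG on either strand, which reads CACGT or CACGC on the other. The start of LINC00511 held 3 such cores, first base at -181, -117 and -5 from the start, and the windows of the other genes shown held 0.
LINC01619: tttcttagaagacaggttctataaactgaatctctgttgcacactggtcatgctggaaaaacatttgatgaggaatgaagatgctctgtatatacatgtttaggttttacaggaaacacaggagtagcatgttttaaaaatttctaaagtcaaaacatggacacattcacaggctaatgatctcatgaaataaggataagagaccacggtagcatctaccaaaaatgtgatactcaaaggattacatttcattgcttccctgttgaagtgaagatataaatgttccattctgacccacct
LINC00511: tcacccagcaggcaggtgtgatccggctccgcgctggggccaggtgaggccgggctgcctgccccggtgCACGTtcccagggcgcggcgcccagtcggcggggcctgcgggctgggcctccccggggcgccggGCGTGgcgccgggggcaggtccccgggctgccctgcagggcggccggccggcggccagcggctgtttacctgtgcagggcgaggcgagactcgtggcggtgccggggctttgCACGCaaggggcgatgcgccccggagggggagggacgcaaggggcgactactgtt
LINC00673: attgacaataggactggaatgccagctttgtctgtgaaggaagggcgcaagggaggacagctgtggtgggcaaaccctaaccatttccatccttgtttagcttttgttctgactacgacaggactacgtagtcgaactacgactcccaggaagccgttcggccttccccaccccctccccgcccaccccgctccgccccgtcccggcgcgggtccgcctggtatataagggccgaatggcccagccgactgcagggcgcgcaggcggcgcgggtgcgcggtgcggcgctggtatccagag
Over all members 191 of 463 windows (41.3%) held a core, against 53.0% of the windows of all 23193 listed genes and 57.8% of the 17404 genes tested in the body or at the TSS. These matches are letters in a window, and HIF1A binding there was not analysed here.

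LINC genes were transcribed at low levels and over shorter units than protein-coding genes. Their median gene body level was 0.278 RPKM (CPM per kilobase of gene body), against 1.44 RPKM for tested protein-coding genes and 0.885 RPKM for genes named as antisense. Members spanned a wide range, with the middle 50% between 0.0438 and 1.22 RPKM, and body lengths ran from 0.534 to 590 kb with a median of 16.5 kb. Together they took 0.582% and 0.684% of gene body reads in normoxic and 0.699% and 0.882% in hypoxic WT libraries, against 0.524% and 0.625% in normoxic and 0.579% and 0.671% in hypoxic HIF1A-/- libraries. In every group the share was higher in replicate 2 than in replicate 1. Without LINC00673, the single largest contributor in WT cells, the WT shares were 0.556% and 0.643% in normoxia and 0.643% and 0.800% in hypoxia.

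The start regions of LINC genes differed from those of protein-coding genes. The median CpG content, as observed over expected, was 0.309 at LINC starts against 0.788 at protein-coding starts. The pausing index, which is the density of reads in the TSS region, which runs from just before the start into the first part of the gene, over that in the gene body, had a median between 3.95 and 5.61 in the 8 libraries over the 286 members tested in both regions, against 6.07 to 12 over 12586 protein-coding genes. Both lowest values came from replicate 1 of HIF1A-/- normoxia, which had the fewest TSS reads. The TSS was still the denser region in 84.6% to 86.7% of these members.

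By position, 243 members (52.5%) had no other gene of the tables within 10 kb. Another 33 began within 1 kb of an oppositely oriented start, 48 lay within 10 kb downstream of a gene on the same strand, 17 overlapped a gene on the same strand, 50 overlapped one on the opposite strand only, and 72 had some other gene within 10 kb. The 33 divergent members had CpG-rich starts, with a median of 0.864 against 0.260 for the 243 isolated members. The median pausing index was 22.8 over the 29 divergent and 3.46 over the 131 isolated members tested in both regions. Whether the counting used strand is not stated outright in the sources used here. All 10 LINC bodies lying wholly inside another gene body on the same strand had 0 reads, as did 10 of 33 lying inside one on the opposite strand. Reads were therefore taken to have been assigned by strand, with those in a stretch shared on one strand counted for neither gene.

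Of the 463 members 460 matched a current RefSeq entry, of which 442 are long non-coding RNAs, 16 are now protein-coding and 2 are transcribed pseudogenes, and 62 have since been renamed. LINC00116 is now MTLN, which encodes the mitochondrial micropeptide mitoregulin, and LINC00961 is SPAAR, which encodes a small regulator of amino acid sensing. LINC01468 is LNCAROD, named as an activating regulator of DKK1, LINC01578 is CHASERR, which lies beside CHD2, and LINC01135 is JUN-DT.

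The most densely read bodies were those of LINC00324 with a mean of 26.4 RPKM, LINC00641 with 25.1, LINC01970 with 20.1, LINC00243 with 18.4 and LINC01465 with 17.3 RPKM. LINC01011, LINC01126, LINC01424, LINC01004 and LINC00167 followed with 17.0, 14.4, 13.6, 13.1 and 13 RPKM. Several are short units beside other genes. LINC00324 lies 777 bp downstream of CTC1 and LINC00641 2235 bp downstream of HNRNPC, both on the same strand, while LINC01126 and LINC01424 start divergently from ZFP36L2 and UBE2G2. None of the 10 was called in any comparison of the main test described below. That test called 0% to 4.26% of all gene bodies and 0% to 1.1% of all TSS regions per comparison. With the replicate number as a block, also described below, LINC01011 was called higher in WT hypoxia (adjusted p = 0.0382 by edgeR), and the bodies of LINC01011, LINC00324, LINC00167 and LINC01465 were called lower in HIF1A-/- than in WT cells in hypoxia (adjusted p = 0.00366, 0.00526, 0.0340 and 0.0732). In that blocked fit LINC00324 was also called lower in normoxia (adjusted p = 0.0829), and LINC00641 higher at its TSS in hypoxia (adjusted p = 0.0541). Over all genes the blocked fit called 3.73% of bodies higher in WT hypoxia. Against WT it called 15.1% of bodies lower in HIF1A-/- hypoxia and 6.39% in HIF1A-/- normoxia, and 7.47% of TSS regions higher in HIF1A-/- hypoxia.

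Total gene body reads ran from 18125234 to 23622392 per library and TSS reads from 2783581 to 5966348, with replicate 1 of both HIF1A-/- groups lowest at the TSS. A LINC gene just over the minimum of 0.5 CPM therefore rested on few reads. Of 7 epithelial markers 6 were well transcribed in all libraries (KRT19 at 70.1 to 124 RPKM), while VIL1 stayed at or under 0.0216 RPKM. Their summed level was 121 to 183 RPKM in WT and 169 to 187 RPKM in HIF1A-/- libraries, and that of 8 blood, endothelial and fibroblast markers 1.23 to 3.37 RPKM, mostly COL1A1. Their part in the genotype differences was not tested. HIF1A itself was transcribed at 129 to 164 CPM in WT and 141 to 172 CPM in HIF1A-/- libraries, with log2 differences of 0.07 in normoxia and 0.20 in hypoxia that were not called (adjusted p = 0.991 and 0.591, edgeR's quasi-likelihood test). Because its gene body extends far beyond the disrupted exons, these counts do not check the genotype labels.

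The first question was how LINC transcription changed within 90 min of hypoxia in WT cells. Most LINC gene bodies were read more densely in hypoxia, by a small amount at the median, and LINC01619 passed the test. The median log2 fold change was 0.24 over the 420 LINC bodies and -0.02 over all 16686 tested genes, and 322 LINC bodies (76.7%) had a value above 0 against 47.5% of all genes. For 111 of the 420 (26.4%) the hypoxia libraries were both above the normoxia pair, and for 17 (4.05%) both below it, against 19.8% and 17.3% of all genes tested. By edgeR's quasi-likelihood test at a false discovery rate (FDR) of 10%, 1 LINC body was called higher and 0 lower, beside 0.431% and 0% of all genes. At an unadjusted p under 0.05 there were 20 higher and 0 lower, beside 3.51% and 1.1% of all genes. Same-numbered libraries deviated together from their group means, and with the replicate number as a block the test called 25 LINC bodies higher and 1 lower, beside 3.73% and 1.77% of all genes (5.51% in either direction). Without any one of the 4 WT libraries the count without the block was 0.

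The LINC median was similar at all levels and positions. When the 420 bodies were ordered by mean CPM and divided into 3 sets of 140, the medians were 0.26 in the lowest, 0.22 in the middle and 0.23 in the highest set. They lay between 0.19 and 0.32 for the 6 kinds of position, with 0.25 for the members that have no gene within 10 kb. Antisense genes had a median of 0.18, genes named LOC 0.20 and protein-coding genes -0.04. WT replicates 1 and 2 taken separately, by CPM without the scaling of the fit, gave LINC medians of 0.22 and 0.23. Over all genes these medians were 0.03 and -0.004.

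In HIF1A-/- cells the same comparison gave a LINC median of 0.10, with 263 of 420 bodies (62.6%) above 0 and a median of 0.00 for all genes. Antisense genes had a median of 0.09 and genes named LOC 0.12. No LINC body was called by edgeR, as no gene was (0% of all tested), and 9 LINC bodies, all higher, had an unadjusted p under 0.05, beside 1.05% of all genes higher and 1.03% lower. Replicates 1 and 2 of the HIF1A-/- line taken separately, again by CPM without that scaling, gave LINC medians of 0.17 and 0.09. Over all genes these medians were 0.05 and 0.03. The LINC value of replicate 1 lay nearer to those of the WT pairs than that of replicate 2 did, but below both. With the replicate block LINC01619 alone was called, as higher, beside 0.03% of all genes higher, 0.00599% lower and 0.036% in either direction. The difference between the genotypes in the response had a LINC median of 0.09 against -0.02 for all genes, 0.08 for antisense genes and 0.04 for genes named LOC. Again 0 LINC bodies were called beside 0.0539% of all genes, and 3 had an unadjusted p under 0.05 beside 1.36%. With the block 1 LINC body was called, beside 0.384%. DESeq2, run as an alternative, called 4 LINC bodies in WT hypoxia and 0 in each of these comparisons. The share of all genes called by DESeq2 was not taken, so these counts compare fits only.

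**Figure D1:**
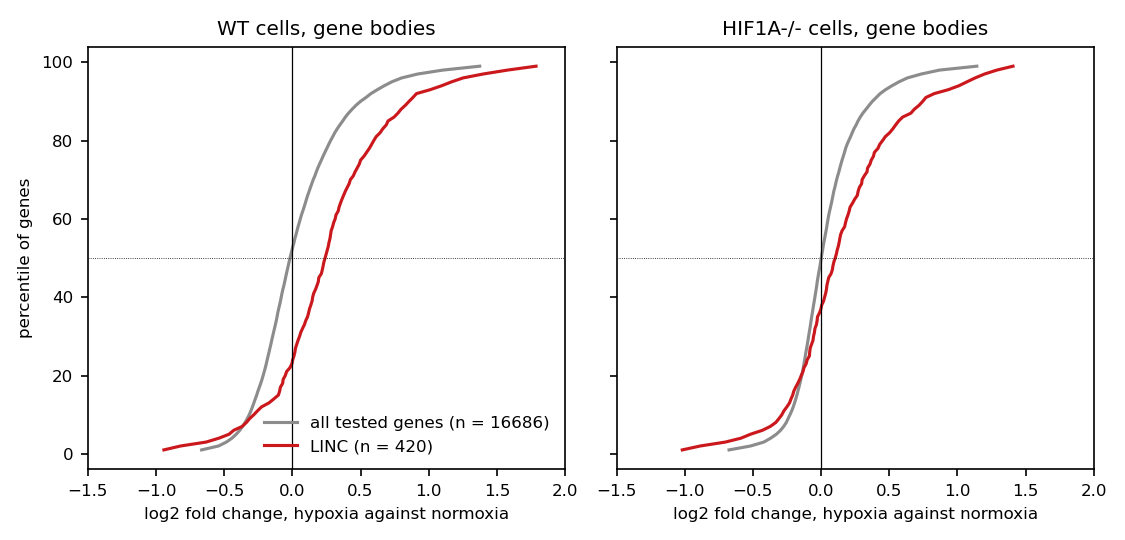
Cumulative distribution of the log2 fold change of gene bodies, hypoxia against normoxia, in WT (left) and HIF1A-/- cells (right). The horizontal axis is the fitted log2 fold change and the vertical axis the percentile of genes, in red for 420 LINC genes and in grey for all 16686 tested genes. In WT cells the LINC curve crosses the 50th percentile at 0.24 and that of all genes at -0.02, and in HIF1A-/- cells the LINC curve crosses at 0.10.

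LINC01619 (body chr12:92378751-92535606, minus strand) had the clearest hypoxic increase. Its body gave 28.5 and 34.5 CPM in normoxic and 79.3 and 113 in hypoxic WT libraries, against 18.3 and 28.6 in normoxic and 37.7 and 57.4 in hypoxic HIF1A-/- libraries. The hypoxia libraries lay above the normoxia libraries in both genotypes without overlap, and at a lower level in HIF1A-/- cells. In WT cells the log2 fold change was 1.58 (SE 0.262, adjusted p = 0.0847 by edgeR's quasi-likelihood test, 3.50e-04 with the replicate block, 5.78e-06 to 0.912 over 14 alternatives, of which 9 called it). In HIF1A-/- cells it was 0.98 and called only with the block (adjusted p = 1.00, or 0.0426 with it), and the difference between the genotypes was not called.

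LINC01619 begins inside the 3′ part of BTG1, an antiproliferative gene on the same strand, and shares 1554 bases of its body with it. BTG1 gave 9.13 and 17.2 CPM in WT normoxia and 23.1 and 34.8 in WT hypoxia, and 10.5 and 13.2 against 14.2 and 18.6 in the HIF1A-/- line. For BTG1 the WT value of 1.11 on the log2 scale (SE 0.32) was not called by edgeR without the block (adjusted p = 0.655, or 0.0186 with it). At the start of LINC01619 the TSS counts were 9.69 and 12.1 CPM in WT normoxia and 15.8 and 27.2 in WT hypoxia, a log2 fold change of 1.02 that was not called (adjusted p = 0.922, or 0.141 with the block). How far polymerase running on from BTG1 contributed to the LINC01619 counts was not tested.

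LINC00511 and LINC00673 lie on chromosome 17 on the minus strand, with LINC00673 beginning 5234 bp beyond the end of LINC00511. LINC00511 has been linked to tumour growth and to the chromatin enzyme EZH2, and LINC00673 to carcinoma growth and to turnover of the phosphatase PTPN11. LINC00673 had the higher mean CPM of the pair and took 4.48% to 9.29% of all LINC body reads in WT libraries, and 0.559% to 0.746% in HIF1A-/- libraries.

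The LINC00511 body (chr17:70594179-70635610) gave 31.7 and 41.6 CPM in normoxic and 60.9 and 79.3 in hypoxic WT libraries, against 9.91 and 14.2 in normoxic and 14.9 and 18.9 in hypoxic HIF1A-/- libraries. Hypoxia libraries lay above normoxia libraries in each genotype, and all WT libraries lay above all HIF1A-/- libraries. The WT response of 0.91 (SE 0.213) was called only with the block (adjusted p = 0.359 by edgeR, 0.00308 with it, 0.00308 to 1.00 over the alternatives), and the HIF1A-/- value of 0.45 in neither fit.

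The LINC00673 body (chr17:70399538-70587944) gave 261 and 407 CPM in normoxic and 557 and 820 in hypoxic WT libraries, against 30.5 and 42.9 in normoxic and 32.4 and 50.1 in hypoxic HIF1A-/- libraries. The WT hypoxia libraries stood above the WT normoxia libraries, while the HIF1A-/- groups overlapped. Its WT log2 fold change was 1.01 (SE 0.279, adjusted p = 0.593 by edgeR, 8.20e-04 with the block) and its HIF1A-/- value 0.13. The difference between these responses, 0.89 (SE 0.396), had an adjusted p of 1.00, and with the block 0.91 (SE 0.125, adjusted p = 0.0291), the one LINC body called for a difference between genotypes in the response.

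The start of LINC00673 behaved differently from its body. In the TSS region it gave 1286 and 1664 CPM in normoxic and 1446 and 1436 in hypoxic WT libraries, against 670 and 768 in normoxic and 653 and 766 in hypoxic HIF1A-/- libraries. The WT oxygen groups overlapped (log2 fold change -0.00, adjusted p = 0.997 by edgeR), and the genotypes were fully apart. Its pausing index was 361 and 294 in normoxic and 222 and 151 in hypoxic WT libraries, against 950 and 1243 in normoxic and 1021 and 1104 in hypoxic HIF1A-/- libraries. The index was thus lower in hypoxia than in normoxia in WT cells, and highest in HIF1A-/- cells. For LINC00511 it stayed between 8.72 and 10.9 in all 8 libraries, with start and body lower together in HIF1A-/- cells.

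**Figure D2:**
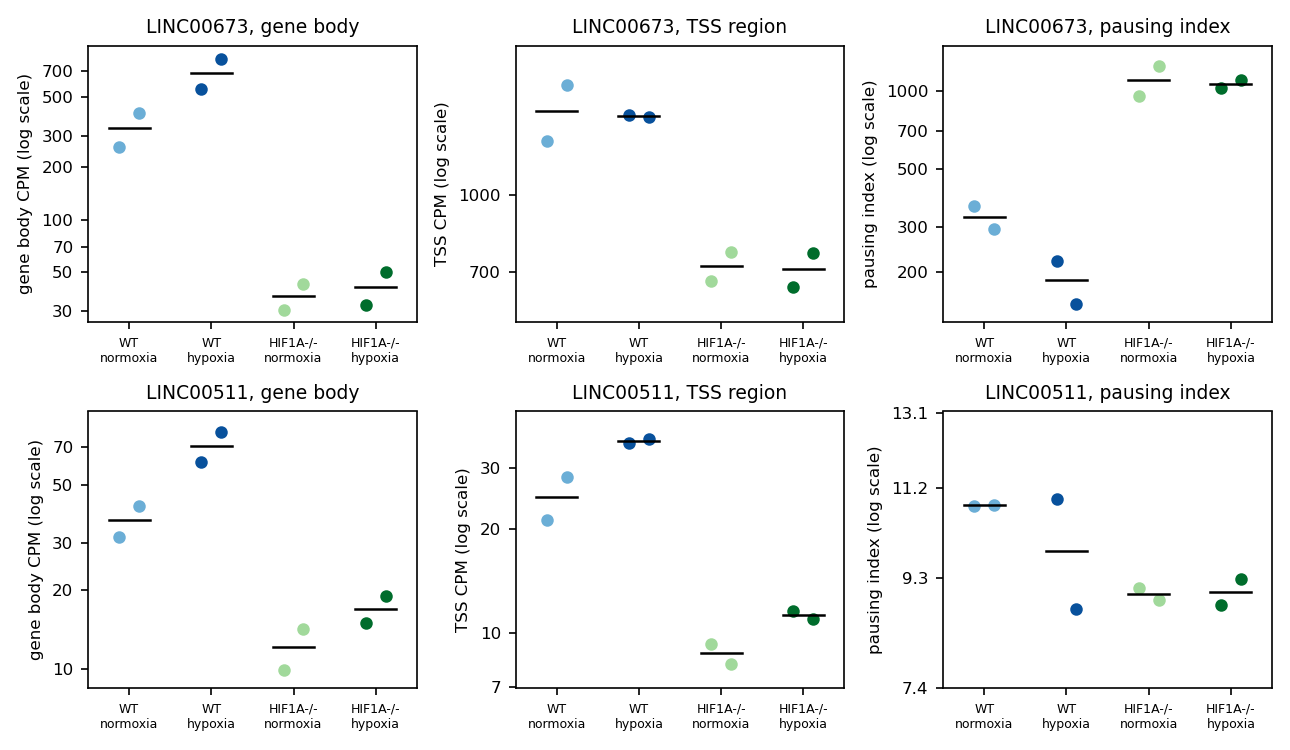
Gene body CPM, TSS CPM and pausing index (all on log scales) of LINC00673 (top) and LINC00511 (bottom) by group, with a point per library and a line at the mean of 2 libraries. For LINC00673 the body rises in WT hypoxia while its TSS does not, and the pausing index is 151 to 361 in WT and 950 to 1243 in HIF1A-/- libraries. For LINC00511 the index stays between 8.72 and 10.9.

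The other members named for the WT response were called only with the block or not at all. They were chosen among members whose WT oxygen groups did not overlap, a condition not set on HIF1A-/- cells. Their separation in WT cells was thus fixed by the choice. LINC00887 gave 2.27 and 3.20 CPM in WT normoxia and 6.48 and 19.5 in WT hypoxia, against 1.55 and 3.17, then 4.18 and 8.09, in HIF1A-/- cells. Both genotypes separated by oxygen, with wide spread between the hypoxia libraries. The WT log2 fold change was 2.22 (SE 0.578, adjusted p = 0.51 by edgeR, 0.00829 with the block). LINC00880 gave 40.0 and 49.9 CPM in normoxic and 64.5 and 92.7 in hypoxic WT libraries, against 31.2 and 43.1 in normoxic and 35.2 and 49.2 in hypoxic HIF1A-/- libraries. Its WT libraries separated by oxygen and its HIF1A-/- libraries overlapped, with a WT log2 fold change of 0.78 (adjusted p = 0.705 by edgeR, 0.00708 with the block). LINC01792 gave 1.40 and 2.15 CPM in normoxic and 4.53 and 8.09 in hypoxic WT libraries, against 0.727 and 2.27 in normoxic and 1.13 and 1.53 in hypoxic HIF1A-/- libraries. It separated by oxygen in WT cells only, with values of 1.80 (SE 0.536, adjusted p = 0.726 by edgeR, 0.0206 with the block) and, for the difference between the genotypes, 1.99 (adjusted p = 1.00, or 0.33 with the block).

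The 25 bodies called higher with the block had log2 fold changes from 0.40 to 2.22, with a median of 1.01. They included LINC01135, which starts divergently from JUN, LINC00607, LINC00484, LINC01481, LINC01714, LINC00898 and LINC02026. Of the 25, 12 (48.0%) held a hypoxia response element core in the window, against 41.3% of all members and 57.8% of all tested genes. Between the genotypes in normoxia, the blocked fit gave a core in 13 of 46 bodies lower and 11 of 18 higher in HIF1A-/- cells. In hypoxia a core was held by 33 of 90 lower and 11 of 22 higher bodies. Whether these shares differ was not tested. Among the most densely read members LINC01011 was called with the block, with a log2 fold change of 0.54 and an adjusted p of 0.0382 by edgeR. LINC01291, which was chosen after its values were seen because of its place 15776 bp downstream of the glycolytic gene HK2, gave 0.531 and 0.607 CPM in normoxic and 2.90 and 2.12 in hypoxic WT libraries, against 0.5 and 0.0946 in normoxic and 0.590 and 0.493 in hypoxic HIF1A-/- libraries. Only its WT hypoxia libraries stood apart, with a log2 fold change of 2.1 (adjusted p = 0.747 by edgeR, 0.0547 with the block) on 11 reads in each normoxia library and 55 and 50 in hypoxia. HK2, on the same strand, gave 103 and 112 CPM in normoxic and 538 and 726 in hypoxic WT libraries, against 82.6 and 50.5 in normoxic and 104 and 59.2 in hypoxic HIF1A-/- libraries, a WT log2 fold change of 2.53 (SE 0.36, adjusted p = 0.0459 by edgeR).

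**Figure D3:**
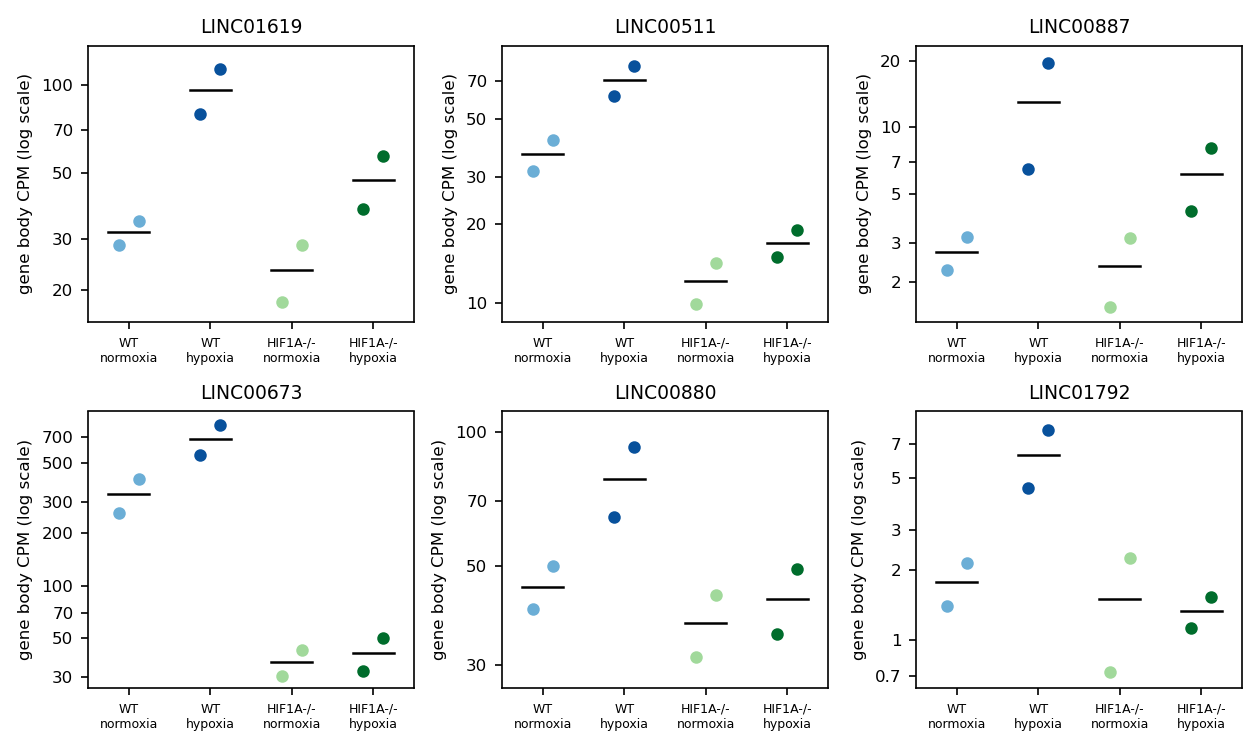
Gene body CPM (log scale) of 6 LINC genes with higher WT values in hypoxia, by group, with a point per library and a line at the mean of 2 libraries. In each panel both WT hypoxia points lie above both WT normoxia points, as 79.3 and 113 CPM over 28.5 and 34.5 for LINC01619, while LINC00673, LINC00880 and LINC01792 show overlapping oxygen groups in HIF1A-/- cells. All 6 met a naming rule that required WT oxygen groups apart and set no condition on HIF1A-/- cells, so the WT separation does not count as a result.

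Decreases in hypoxia were fewer and smaller. LINC01234, linked to growth of several carcinomas, gave 115 and 84.0 CPM in normoxic and 87.3 and 60 in hypoxic WT libraries, against 133 and 107 in normoxic and 105 and 92.7 in hypoxic HIF1A-/- libraries. Its WT groups overlapped although each hypoxia library was below the normoxia library of its number, and it was the only LINC body called lower with the block (log2 fold change -0.46, adjusted p = 0.897 by edgeR, 0.0526 with the block). The lowest unadjusted p among members with WT groups apart belonged to LINC00982 (-0.83), LINC01783 (-0.66), LINC01094 (-1.02), LINC00618 (-1.06) and LINC01250 (-0.46), none called in the fit without the block (adjusted p = 0.897 for each by edgeR). For the difference between the genotypes the corresponding values were 1.6 for LINC00629, 0.78 for LINC01560 and 0.60 for LINC01355 on the higher side, and -1.40 for LINC01545, -0.94 for LINC00982, -0.53 for LINC01315, -1.21 for LINC00618 and -0.36 for LINC00999 on the lower, with an adjusted p of 1.00 for each.

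At LINC start regions hypoxia gave 0 calls in either genotype, with and without the block, beside 0.046% of all 15212 tested TSS regions in WT and 0% in HIF1A-/- cells, and 0 for the difference between them beside 0.00657%. With the block 0.789% and 0.217% of all TSS regions were called higher and lower in WT cells, 1.01% together. At an unadjusted p under 0.05 edgeR gave 13, 5 and 7 of the 329 LINC starts, beside 4.02%, 0.887% and 1.18% of all TSS regions, and DESeq2 called 0 in each.

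The next question was how the genotypes differed. Larger differences than those of hypoxia separated HIF1A-/- from WT cells, and they went both ways. In normoxia 7 LINC bodies were higher and 5 lower in HIF1A-/- cells by edgeR's quasi-likelihood test at an FDR of 10%, beside 0.725% and 1.05% of all genes (1.78% in either direction). In hypoxia 7 were higher and 13 lower, beside 1.47% and 2.79% (4.26%). With the replicate block these counts were 18 and 46 in normoxia (3.93% and 6.39% of all genes, 10.3% together) and 22 and 90 in hypoxia (13.1% and 15.1%, 28.2% together). Between the normoxia and hypoxia comparisons 11 bodies were called in both, 91.7% of those in normoxia and 55.0% of those in hypoxia, all in the same direction. The comparisons contrasted different libraries, but of the same lines, in one fit with a shared spread, and same-numbered libraries deviated together. The overlap is therefore not an independent repeat, and its share over all genes was not taken. The median log2 difference was -0.11 in normoxia and -0.20 in hypoxia over LINC bodies, with 253 and 279 of 420 below 0, against -0.01 and 0.00 over all genes. Genes named LOC had medians of -0.09 and -0.16 and antisense genes -0.06 and -0.14, so the direction was shared with these classes. The normoxia count of 12 fell to 6 and 2 without replicate 1 or 2 of WT normoxia and to 5 without replicate 1 of HIF1A-/- normoxia. The hypoxia count of 20 fell to 12 without either WT normoxia library, to 11 and 7 without replicate 1 or 2 of WT hypoxia, and to 6 and 9 without replicate 1 or 2 of HIF1A-/- hypoxia.

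**Figure D4:**
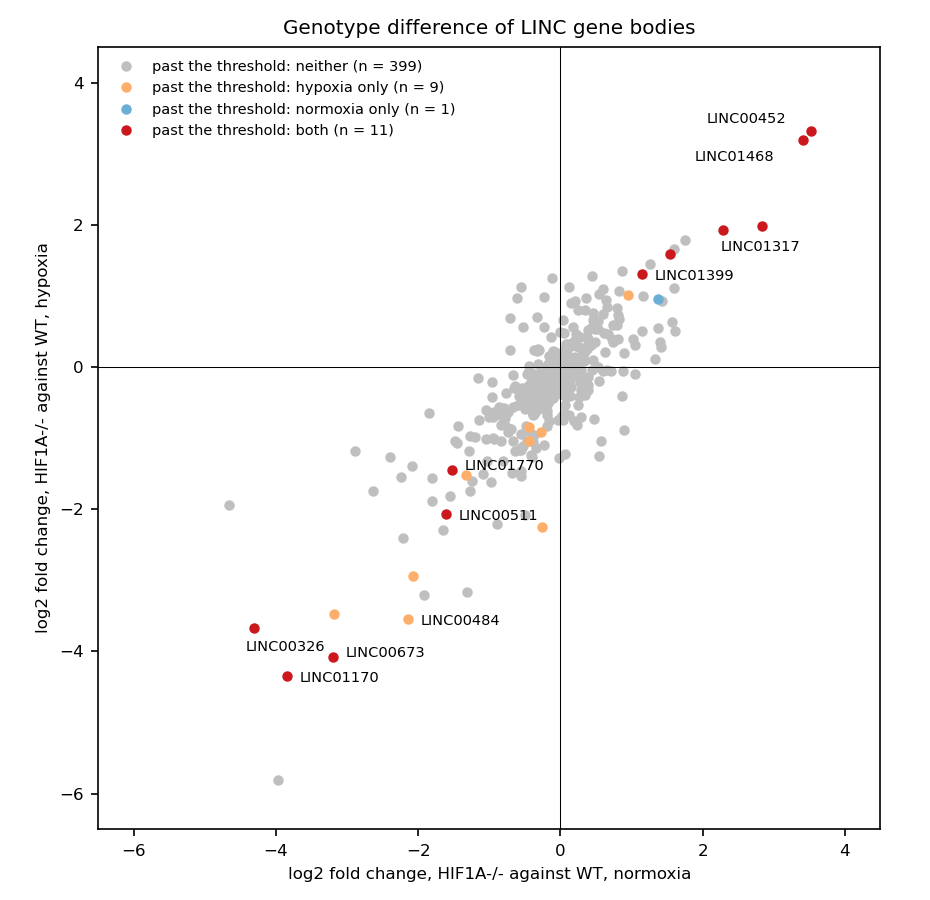
Log2 fold change of 420 LINC gene bodies, HIF1A-/- against WT, in normoxia (horizontal axis) and in hypoxia (vertical axis), each point a gene. Red points were past the FDR of 10% in both comparisons (11), orange in hypoxia only (9), blue in normoxia only (1), and grey in neither (399). The 11 red points lie in the upper right and lower left fields, where both values have the same sign.

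LINC00673 and LINC00511 were lower in HIF1A-/- cells at both oxygen levels. The genotype difference of the LINC00673 body was -3.19 in normoxia (SE 0.302, adjusted p = 0.00298 by edgeR) and -4.08 in hypoxia (SE 0.314, adjusted p = 0.00117), and that of LINC00511 was -1.61 (SE 0.221, adjusted p = 0.0167) and -2.06 (adjusted p = 0.00405). LINC00673 was called in both comparisons by all 14 alternatives, and LINC00511 by 13 in normoxia and 14 in hypoxia. At the start the differences of LINC00673 were -1.02 and -1.04 (adjusted p = 0.014 and 0.0112 by edgeR) and those of LINC00511 -1.49 and -1.68 (adjusted p = 0.0686 and 0.0192).

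LINC01170 (chr5:123395486-123773212, minus strand) was nearly silent in HIF1A-/- cells. Its body gave 4.44 and 7.72 CPM in normoxic and 7.06 and 15.1 in hypoxic WT libraries, against 0.227 and 0.615 in normoxic and 0.541 and 0.543 in hypoxic HIF1A-/- libraries. The genotypes were far apart, at 92 reads or more in each WT library and 13 or fewer in each HIF1A-/- library. The log2 differences were -3.85 (SE 0.573, adjusted p = 0.0228 by edgeR) and -4.34 (adjusted p = 0.00896). The nearest gene, ZNF608, 198 kb away on the same strand, gave 24.7 and 51.3 CPM in normoxic and 41.6 and 75.1 in hypoxic WT libraries, against 0.955 and 3.17 in normoxic and 2.07 and 3.95 in hypoxic HIF1A-/- libraries. It was lower by -4.22 and -4.29 on the log2 scale (adjusted p = 0.0181 and 0.0108 by edgeR).

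For LINC00326 and LINC01770, also lower in HIF1A-/- cells, the nearest gene had a smaller negative value that the test without the block did not call. LINC00326 gave 3.09 and 7.28 CPM in normoxic and 2.84 and 8.42 in hypoxic WT libraries, against 0.182 and 0.331 in normoxic and 0.295 and 0.592 in hypoxic HIF1A-/- libraries. All WT values exceeded all HIF1A-/- values (log2 -4.31 and -3.67, adjusted p = 0.0433 and 0.0411 by edgeR), whereas its nearest gene EYA4, 135 kb away, had values of -0.66 and -1.49 that were not called (adjusted p = 0.905 and 0.282, with 0.0766 in hypoxia under the block). The HIF1A-/- values of LINC00326 rested on few reads, since 3 counts equal 0.136 to 0.148 CPM in those libraries, so its fold changes are imprecise. Without the WT libraries its body would not have passed the minimum, so the direction of its difference was not free of that filter. LINC01770 gave 18.7 and 27.7 CPM in normoxic and 27.4 and 30.6 in hypoxic WT libraries, against 7.64 and 8.56 in normoxic and 9.54 and 12 in hypoxic HIF1A-/- libraries. It too separated completely by genotype (log2 -1.52 and -1.44, adjusted p = 0.0206 and 0.0172 by edgeR), while VWA1, which starts divergently 949 bp away, had -0.52 and -0.31, not called (adjusted p = 0.342 and 0.445, with 0.0837 in normoxia under the block).

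Several members were called lower in hypoxia and, without the block, not in normoxia, which does not show that the genotype difference depended on oxygen, since the difference between the responses was not called for any of them. LINC00484 gave 3.91 and 7.12 CPM in normoxic and 10.4 and 18.0 in hypoxic WT libraries, against 0.545 and 1.99 in normoxic and 0.689 and 1.78 in hypoxic HIF1A-/- libraries. The genotypes did not overlap at either oxygen level, with log2 values of -3.54 in hypoxia (adjusted p = 0.0325 by edgeR) and -2.14 in normoxia (adjusted p = 0.258, or 0.00272 with the block). LINC01578, the CHASERR transcript that represses its neighbour CHD2, gave 88.2 and 101 CPM in normoxic and 105 and 135 in hypoxic WT libraries, against 71.1 and 67.9 in normoxic and 65.5 and 69.7 in hypoxic HIF1A-/- libraries. Every HIF1A-/- library lay below every WT library, by -0.84 in hypoxia (adjusted p = 0.0325 by edgeR) and -0.44 in normoxia (adjusted p = 0.368, or 0.0801 with the block). CHD2, 1573 bp downstream, had a value of -0.41 in hypoxia (adjusted p = 0.159, or 0.0156 with the block).

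LINC00886 gave 141 and 157 CPM in normoxic and 201 and 279 in hypoxic WT libraries, against 74.8 and 43.1 in normoxic and 98.3 and 69.6 in hypoxic HIF1A-/- libraries, again with no overlap between the genotypes. Its log2 difference was -1.52 in hypoxia (adjusted p = 0.0528 by edgeR) and -1.32 in normoxia (adjusted p = 0.14, or 0.0269 with the block), and its start was called in normoxia, at -0.99 (adjusted p = 0.0595). It overlaps the pseudogene PA2G4P4 on the same strand, whose row held 0 reads. Reads in a shared stretch were taken as counted for neither gene, so this 0 does not show that PA2G4P4 was silent. LINC00543, 6704 bp from the intestinal transcription factor gene CDX2, gave 1.06 and 1.32 CPM in normoxic and 0.737 and 1.95 in hypoxic WT libraries, against 0.273 and 0.284 in normoxic and 0.148 and 0.197 in hypoxic HIF1A-/- libraries. The HIF1A-/- values stood on 3 to 6 reads per library, and the log2 value was -2.94 in hypoxia (adjusted p = 0.0653 by edgeR) and -2.08 in normoxia (adjusted p = 0.257, or 0.0399 with the block). LINC00398 held 13, 29, 15 and 48 reads in the WT libraries and 2, 3, 3 and 2 reads in the HIF1A-/- libraries, too few there for a fold change, and was called in hypoxia (adjusted p = 0.0745 by edgeR) and, with the block, also in normoxia (adjusted p = 0.167, or 0.0139 with it). The body of LINC00398 likewise passed the minimum only through WT libraries. LINC01619, LINC00880 and LINC01792, whose values are given with the hypoxia response, completed the 13, at -1.04, -0.91 and -2.25 (adjusted p = 0.0971, 0.098 and 0.0893 by edgeR). Of these LINC01619 was also called lower in normoxia with the block, at -0.44 (adjusted p = 0.765, or 0.0447 with it).

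Among the members higher in HIF1A-/- cells, LINC01468 (chr10:54210636-54229292, minus strand) changed most clearly. It gave 1.30 and 3.48 CPM in normoxic and 1.95 and 4.11 in hypoxic WT libraries, against 24.5 and 25.8 in normoxic and 28.9 and 27.0 in hypoxic HIF1A-/- libraries. The genotypes did not overlap and oxygen made little difference, with log2 values of 3.41 (SE 0.457, adjusted p = 0.0159 by edgeR) and 3.19 (adjusted p = 0.0121), called by all 14 alternatives in each. DKK1, a secreted inhibitor of WNT signalling 133 kb away on the opposite strand, gave 44.0 and 54.2 CPM in normoxic and 37.8 and 40.9 in hypoxic WT libraries, against 308 and 265 in normoxic and 262 and 239 in hypoxic HIF1A-/- libraries. DKK1 was higher by 2.55 and 2.66 on the log2 scale (adjusted p = 7.33e-04 and 5.23e-04 by edgeR).

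**Figure D5:**
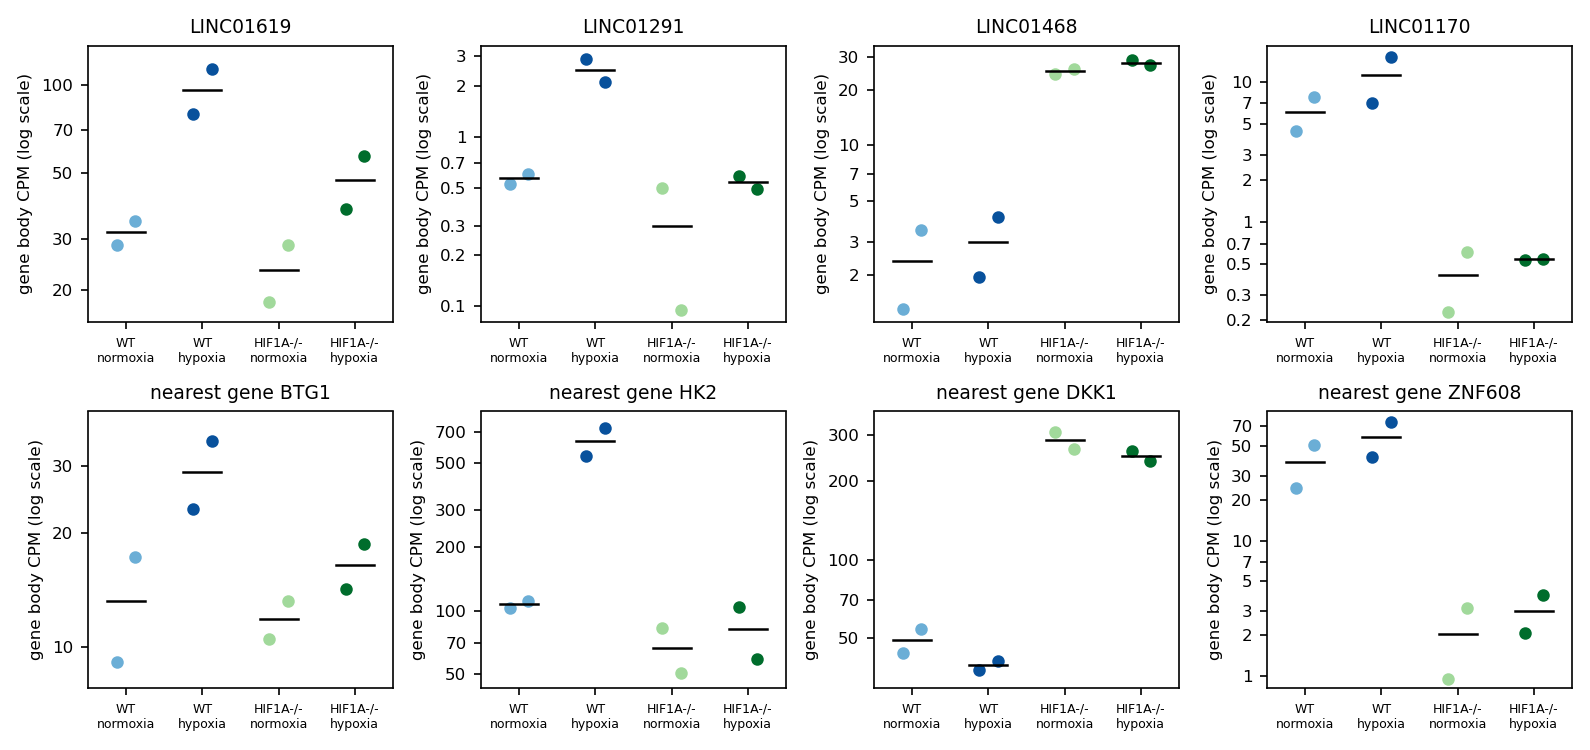
Gene body CPM (log scale) of 4 LINC genes (top) and the nearest other gene of each (bottom) by group, with a point per library and a line at the mean of 2 libraries. LINC01619 and BTG1, and LINC01291 and HK2, show their highest points in WT hypoxia. LINC01468 and DKK1 are higher in both HIF1A-/- groups, as 24.5 to 28.9 CPM against 1.30 to 4.11 for LINC01468, and LINC01170 and ZNF608 are lower. The pairs were picked for display, LINC01291 after its values were seen, and do not show how often neighbours move together. HMGXB4 near LINC01399, EYA4 near LINC00326 and VWA1 near LINC01770, not called without the block, are not shown.

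LINC01399 (chr22:35515816-35626048, minus strand) differed at both its body and its start. The body gave 83.5 and 93.4 CPM in normoxic and 93.3 and 92.5 in hypoxic WT libraries, against 217 and 171 in normoxic and 266 and 197 in hypoxic HIF1A-/- libraries, and the TSS region 70.6 and 91.8, 75.7 and 113, 178 and 223, and 205 and 205 CPM in the same order. All HIF1A-/- libraries lay above all WT libraries in both regions. The body differed by 1.14 and 1.31 (adjusted p = 0.0509 and 0.0219 by edgeR) and the start by 1.32 and 1.09 (adjusted p = 0.0157 and 0.0325) on the log2 scale in normoxia and hypoxia. HMGXB4, 26395 bp away on the opposite strand, had -0.06 and -0.08 and was not called.

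LINC01835 gave 14.5 and 16.4 CPM in normoxic and 15.7 and 28.0 in hypoxic WT libraries, against 36.8 and 43.8 in normoxic and 42.2 and 42.9 in hypoxic HIF1A-/- libraries. The genotypes were apart, with log2 values of 1.38 in normoxia (adjusted p = 0.048 by edgeR) and 0.95 in hypoxia (adjusted p = 0.106, or 0.0109 with the block). At its start 0 reads were counted in both WT normoxia libraries against 6 and 12 in HIF1A-/- normoxia, at least 3.39-fold higher against a floor of 3 counts per library (adjusted p = 0.0911 by edgeR). Of the normoxia libraries, only those of HIF1A-/- cells could pass the minimum at this start. LINC01317, the longest member at 590 kb, gave 0.725 and 0.772 CPM in normoxic and 0.948 and 1.86 in hypoxic WT libraries, against 4.27 and 6.62 in normoxic and 4.62 and 6.71 in hypoxic HIF1A-/- libraries. It was higher by 2.84 and 1.98 (adjusted p = 0.0258 and 0.0491 by edgeR), with no overlap of the genotypes. It overlaps LINC01318 on the same strand, whose row held 0 reads. As reads in a shared stretch were taken as counted for neither gene, this 0 does not show that LINC01318 was silent.

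LINC00452 gave 1.40 and 0.938 CPM in normoxic and 1.11 and 1.19 in hypoxic WT libraries, against 19.7 and 7.05 in normoxic and 16.3 and 6.46 in hypoxic HIF1A-/- libraries. In both HIF1A-/- groups replicate 1 was far above replicate 2, and both were above WT (log2 3.52 and 3.31, adjusted p = 0.0603 and 0.0477 by edgeR). LINC00842 gave 5.89 and 8.50 CPM in normoxic and 8.11 and 13.6 in hypoxic WT libraries, against 21.2 and 20.6 in normoxic and 36.8 and 28.6 in hypoxic HIF1A-/- libraries. It differed by 1.54 and 1.59 (adjusted p = 0.0623 and 0.0353 by edgeR) and lies in a chromosome 10 segment with near-identical copies, so its read assignment is uncertain. LINC01173 gave 1.30 and 2.37 CPM in normoxic and 1.26 and 3.30 in hypoxic WT libraries, against 9.45 and 8.28 in normoxic and 8.90 and 8.68 in hypoxic HIF1A-/- libraries. Its genotypes were apart as well (log2 2.28 and 1.92, adjusted p = 0.0779 and 0.0809 by edgeR). LINC01460 gave 5.89 and 5.63 CPM in normoxic and 6 and 7.96 in hypoxic WT libraries, against 8.91 and 13.7 in normoxic and 13.6 and 14.8 in hypoxic HIF1A-/- libraries, with values of 1.01 in hypoxia (adjusted p = 0.0929 by edgeR) and 0.96 in normoxia (adjusted p = 0.186, or 0.0287 with the block).

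At LINC start regions 2 were called higher and 3 lower in normoxia, beside 0.224% and 0.434% of all TSS regions (0.657% together), and 3 higher and 2 lower in hypoxia, beside 0.44% and 0.664% (1.1%). With the block 10 were called higher and 10 lower in normoxia, beside 2.24% and 2.04% of all TSS regions (4.29% together). In hypoxia the block called 25 higher and 22 lower, beside 7.47% and 6.97% (14.4% together). Besides the members already given, LINC00910 and LINC01983 were called higher in hypoxia. The start of LINC00910 gave 34.0 and 45.1 CPM in normoxic and 46.3 and 49.6 in hypoxic WT libraries, against 85.9 and 68.3 in normoxic and 125 and 81.8 in hypoxic HIF1A-/- libraries. All HIF1A-/- starts were above all WT starts, by 1.09 in hypoxia (adjusted p = 0.0699 by edgeR) and 0.98 in normoxia (adjusted p = 0.192, or 0.00672 with the block), while its body differed by 0.09 and 0.13 in normoxia and hypoxia. LINC01983 gave 2.03 and 1.31 CPM at its start in normoxic and 1.68 and 1.34 in hypoxic WT libraries, against 7.9 and 3.5 in normoxic and 11.6 and 6.55 in hypoxic HIF1A-/- libraries, with log2 values of 2.54 in hypoxia (adjusted p = 0.0736 by edgeR) and 1.71 in normoxia (adjusted p = 0.464, or 0.0792 with the block). Of the members described above, the block also added the start of LINC01770 as lower in normoxia and hypoxia (adjusted p = 0.0656 and 0.0497 with it), those of LINC00886 and LINC01619 as lower in hypoxia (0.00441 and 0.0924), and those of LINC01460 and LINC01835 as higher in hypoxia (0.0949 and 0.0725). Without single libraries the TSS counts of 5 moved to 1 without either WT normoxia library, 2 without either WT hypoxia library and 14 without replicate 2 of HIF1A-/- normoxia for the normoxia comparison. For the hypoxia comparison they moved to 1 without either WT hypoxia library, 18 without either HIF1A-/- normoxia library, and 0 and 3 without replicate 1 or 2 of HIF1A-/- hypoxia.

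Of 30 LINC genes listed for a described function or disease link, 26 were in the tables and 17 passed the minimum at the gene body. LINC00673 and LINC00511 were called lower in HIF1A-/- cells at both oxygen levels, beside 1.05% of all genes lower in normoxia and 2.79% in hypoxia. Without the block 0 of the 17 were called in hypoxia against normoxia, beside 0.431% of all genes in WT and 0% in HIF1A-/- cells. With the block LINC00673 and LINC00511 were called higher and LINC01234 lower in WT hypoxia, beside 3.73% and 1.77% of all genes. The summed level of the list was 59.3 to 76.4 RPKM in WT normoxia, 72.1 to 90.4 in WT hypoxia, 52.0 to 60.7 in HIF1A-/- normoxia and 53.3 to 61.0 RPKM in HIF1A-/- hypoxia. LINC00324, LINC00963 and LINC00339 were the most densely read of these at 18.8 to 39.3, 5.62 to 12.3 and 5.45 to 6.71 RPKM, and LINC00116 (MTLN) ranged from 1.95 to 3.6 RPKM. In HIF1A-/- hypoxia the block alone called LINC00324, LINC00116, LINC00961 and LINC00963 lower and LINC01234 higher, beside 15.1% and 13.1% of all genes. LINC00961 rested on only 0.0492 to 0.974 CPM. In normoxia the block likewise added LINC00324 and LINC00963 as lower (log2 -0.39 and -0.31, adjusted p = 0.0829 and 0.0675 by edgeR with it), beside 6.39% of all genes. PURPL, listed as LINC01021 and a target of p53, was read at 0.287 to 0.534 RPKM. LINC00261, LINC00473, LINC01133, LINC00668, LINC00958, LINC01116, LINC00858, LINC01207 and LINC00483 were under the minimum.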

How the data were processed

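The deposited values are raw read counts per gene, which the authors obtained with featureCounts (Subread 1.6.2) from libraries labelled strand-specific, after alignment to GRCh37 with Hisat2 2.1.0 without splicing and a filter on mapping quality. Each gene had a single TSS region (551 bases) and a single gene body, so other start sites were not counted.

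Genes with CPM above 0.5 in at least 2 libraries were tested with edgeR 4.0.16 in R 4.3.3 (glmQLFTest, TMM scaling), with all 8 libraries of a table fitted together as 4 group means and no replicate term. Benjamini-Hochberg adjustment covered all tested genes of a table, and calls were made at an FDR of 10%. A gene could pass the minimum through a single group, so a difference favouring that group was not free of the filter. The fit was tested on simulated data. CPM was taken over the library total of the same table, and the pausing index used raw counts with 0.5 added. Replicates differed by more than sampling noise (chi-square per degree of freedom 5.04 to 37.0). Deviations of same-numbered libraries from their group means correlated in all pairs of groups (r from 0.493 to 0.844 for bodies and 0.217 to 0.522 for TSS regions), so the number was taken to pair them, and the counts of the blocked fit are given for every comparison, with its adjusted p for most of the members described where it changed the call. Other alternatives were DESeq2 1.42.0 (the study's test), library totals in place of TMM, no filter, a minimum of 1 CPM, only the groups compared, and leaving out each library.

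Named members were those called, the 5 per direction with the smallest p for the WT response and its difference between genotypes whose WT groups did not overlap, the 10 with the highest mean RPKM, and a list with described functions. The nearest tested genes of called members were also taken, and only some of them are described above. Members and lists were chosen with earlier results of these data known. Floors of 3 counts cover counting error only, since reads without molecular identifiers are not independent molecules.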

Additional observations from a re-analysis of the deposited data

Results flagged for a closer look

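The hypoxia response of the LINC00673 gene body differed between the genotypes in the test of that difference with the replicate block, by 0.91 on the log2 scale (SE 0.125, adjusted p = 0.0291 by edgeR's quasi-likelihood test). Without the block the value was 0.89 (SE 0.396, adjusted p = 1.00), and over 13 alternatives the adjusted p ran from 0.0291 to 1.00, with the blocked fit the only one past the threshold. Both WT hypoxia libraries were above both WT normoxia libraries, and the HIF1A-/- libraries overlapped.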

How the results depend on the processing

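Counts of called LINC genes depended on the fit. For gene bodies in WT hypoxia (1) DESeq2 gave 4, library totals 0 and the replicate block 26, and with the block 1 was called in HIF1A-/- hypoxia and 1 for the difference in response (0 each). HIF1A-/- against WT bodies gave 21 with DESeq2 and 64 with the block in normoxia (12), and 35 and 112 in hypoxia (20). At the TSS the genotype counts of 5 became 16 in normoxia and 29 in hypoxia without a filter, 20 and 47 with the block, 2 and 25 with only the groups compared, and 9 with DESeq2 in hypoxia. Leaving out single libraries gave 0 to 1 in WT hypoxia, 2 to 13 and 6 to 28 for the genotype comparisons of bodies in normoxia and hypoxia, 1 to 14 and 0 to 18 for those of the TSS, and 0 for the other comparisons. For fits other than the main and the blocked one, the share of all genes called was not taken. Their counts therefore compare fits, and do not set LINC genes against all genes. The causes were not tested. A minimum of 1 CPM left 395 of the 463 members.

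For the 76 values of named genes, 1051 alternatives kept the direction and the side of the threshold in 910 cases, moved past the threshold in 19, fell short of it in 119 and turned the direction in 3. Those 3 were neighbours that were not called. SLC4A1AP in hypoxia (log2 -0.05) ranged from -0.142 to 0.0286, CYP4F2 in normoxia (1.04) from -0.635 to 1.83 and HMGXB4 in normoxia (-0.06) from -0.124 to 0.0364 when single libraries were left out. With 2 libraries per group and 2783581 to 5966348 TSS reads, a LINC start that was not called may still differ.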
